A study of Capra hircus with 36 samples.

Results

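The cluster of miR-424, miR-503, miR-542 and miR-450 is a group of neighbouring microRNA (miRNA) genes on the mammalian X chromosome. Its mature miRNAs were taken from the small RNA count tables of goat tissues by name, as every listed arm of miR-424, miR-542, miR-450 and miR-450b, which gave 8 of 1391 mature miRNAs from 4 precursor names. miR-503 was not analysed here. The cluster was selected on the differences of chi-miR-542-3p, chi-miR-450-3p and conserve-chi-miR-450b-5p between the high- and low-altitude populations within tissues of these same libraries, so for these 3 miRNAs the altitude differences and their dependence on tissue are given as a description, with no test. The names are those of the tables, where the prefix conserve marks a match to a miRNA of another mammal. The other 5 miRNAs were chi-miR-542-5p, chi-miR-450-5p, chi-miR-424-5p, chi-miR-424-3p and conserve-chi-miR-450b-3p, of which chi-miR-542-5p, chi-miR-450-5p and conserve-chi-miR-450b-3p come from the same precursors as the chosen 3.

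Kidney, heart, spleen, lung, liver and skeletal muscle were sampled from 3 Tibetan Goats living at 3000 m and 3 Chuandong White Goats living at 600 m, which gave 36 libraries in 12 groups of 3. All animals were adult females of about 3 years, with an age label of more than 3 years. Each population was of a single breed, so breed and altitude cannot be told apart. The libraries held 7108635 to 14407748 miRNA counts (median 10419740.5), and levels are given as RPM, the count scaled to the library total. In these libraries 3 counts corresponded to 0.208 to 0.422 RPM, which covers counting error only.

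A miRNA precursor is a hairpin that can release a mature miRNA from its 5p and from its 3p arm, and the mature strand pairs with target mRNAs mainly through its seed. miR-424-5p shares its seed with the miR-15/16 family, which represses cell cycle genes, and in endothelial cells miR-424 is known to be induced by low oxygen. Neighbouring miRNA genes of a cluster can be cut from a single primary transcript, so their levels can share a source while each mature strand is processed and degraded on its own. In the RefSeq gene table of a later goat assembly, MIR450, MIR542 and MIR424 followed each other in this order on chromosome X, between HPRT1 with a tRNA gene on one side and DLG3 on the other.

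Each marker list had its highest mean in the labelled tissue, though libraries of the leukocyte and kidney lists overlapped with liver. The 6 heart miRNAs (miR-208a, miR-208b and miR-499) summed to a mean of 20426 RPM in heart and to 2802 RPM in muscle, the next tissue. The 5 striated muscle miRNAs (miR-1 and miR-133) summed to means of 483392 RPM in muscle and 253317 RPM in heart, and miR-206 of skeletal muscle ranged from 45.9 to 7759 RPM in muscle, with a mean of 1633 RPM, or 408 RPM without low-altitude replicate 3, and was at most 8.72 RPM in any other library. The hepatocyte miRNA miR-122 ranged from 6201 to 179959 RPM in liver, with a mean of 50656 RPM, or 24796 RPM without high-altitude replicate 3, and was at most 209 RPM in any other library. The ciliated epithelium miRNAs (miR-34b, miR-34c and miR-449a) averaged 7035 RPM in lung (2997 to 12909.7 RPM) and were at most 56.4 RPM in any other library. The leukocyte miRNAs (miR-142 and miR-150) had a mean of 41872 RPM in spleen (14655 to 66253 RPM), against 12226 RPM in liver (6189 to 22482 RPM). The kidney list (miR-196a and miR-204) was the least selective. It had means of 960 RPM in kidney (459.6 to 1495 RPM) and 654 RPM in liver (390 to 1186 RPM), so it did not set kidney apart from liver.

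Across tissues, the cluster was most abundant in kidney. The 8 members summed to 2191 ± 1147 RPM in kidney, 638 ± 455 in liver, 277 ± 65.7 in heart, 261 ± 169 in muscle, 167 ± 129.8 in lung and 155 ± 152 in spleen (mean ± SD, n = 6 libraries). Of the members, conserve-chi-miR-450b-5p had the highest mean over the 36 libraries (237 RPM), followed by chi-miR-424-5p (151 RPM), chi-miR-450-5p (90.8 RPM) and chi-miR-542-3p (79.9 RPM). chi-miR-450-3p averaged 23.0 RPM, conserve-chi-miR-450b-3p 14.9 RPM and chi-miR-542-5p 11 RPM. With a mean of 7.6 RPM, chi-miR-424-3p was the only member below 10 RPM, a level that 308 of the 1391 miRNAs reached. Lower levels of a miRNA in such bulk tissue can come from fewer cells of a type or from less RNA per cell, which cannot be told apart.

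Kidney was the highest tissue for 7 of the 8 members, the exception being chi-miR-450-3p. In kidney, chi-miR-424-5p ranged from 175 to 1271 RPM (median 617), against 3.83 to 28.6 RPM (median 16.0) in spleen, its lowest tissue. chi-miR-542-3p ranged from 197 to 485 RPM (median 225) in kidney and from 5.29 to 41.9 RPM (median 7.12) in spleen. conserve-chi-miR-450b-5p ranged from 383 to 2079 RPM (median 646) in kidney and from 10.3 to 102 RPM (median 64.3) in lung, its lowest tissue. For these 3 miRNAs the kidney range lay wholly above that of the lowest tissue.

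All 8 members differed between tissues in the edgeR test averaged over altitude (adjusted p from 1.09e-12 for chi-miR-542-3p to 0.0102 for chi-miR-450-5p), as did 39.3% of the 1391 miRNAs. Many of these are at low counts, and with edgeR's filterByExpr 73.0% of the 712 miRNAs left differed. The tissue comparison does not use the altitude differences on which the members were chosen. Between tissues next to each other in the order of mean RPM, the step from kidney to the next tissue was in the same direction in 6 of 6 pairs of same-numbered libraries for chi-miR-542-3p, chi-miR-450-5p, chi-miR-424-5p and conserve-chi-miR-450b-5p. These 4 members stayed above 10 RPM without kidney, at means of 37.5 to 118 RPM over the other tissues. chi-miR-542-5p, conserve-chi-miR-450b-3p and chi-miR-450-3p passed 10 RPM only through their highest tissue (5.43 and 6.8 RPM without kidney, 1.29 RPM without liver), so nothing is read from their steps, a restriction made after seeing the data. For chi-miR-424-5p the steps from liver to muscle (1.42 ± 0.43 on the log2 scale) and from muscle to lung (0.48 ± 0.33) also had the same direction in 6 of 6 pairs. In the exact two-sided sign-flip permutation test, 6 of the 20 steps of these 4 members reached p = 0.0312, the smallest that 64 sign assignments can give, and 0 passed after adjustment over the 35 steps of all 7 members tested (adjusted p = 0.122). At least 22 of the 35 would have to reach that smallest p for any to pass, so the adjusted test could hardly be passed and nothing is read from it. Without the pairing, an exact permutation of libraries passed 2 of the 20 (adjusted p = 0.0253). These were kidney above liver for chi-miR-542-3p and kidney above heart for chi-miR-450-5p. The order of tissues came from these same libraries, and the permutation ignores that tissues were taken from the same goats. Its adjustment also holds a passing step of chi-miR-450-3p, so nothing is read from it. Heart is next to kidney for chi-miR-450-5p only because this arm was listed at 0 in 3 of 6 livers. With both arms summed, miR-450 averaged 359 ± 193 RPM in kidney, 179 ± 172 RPM in liver and 51.1 ± 26.1 RPM in heart (SD, n = 6), and kidney was above liver in 6 of 6 pairs.

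**Figure D1:**
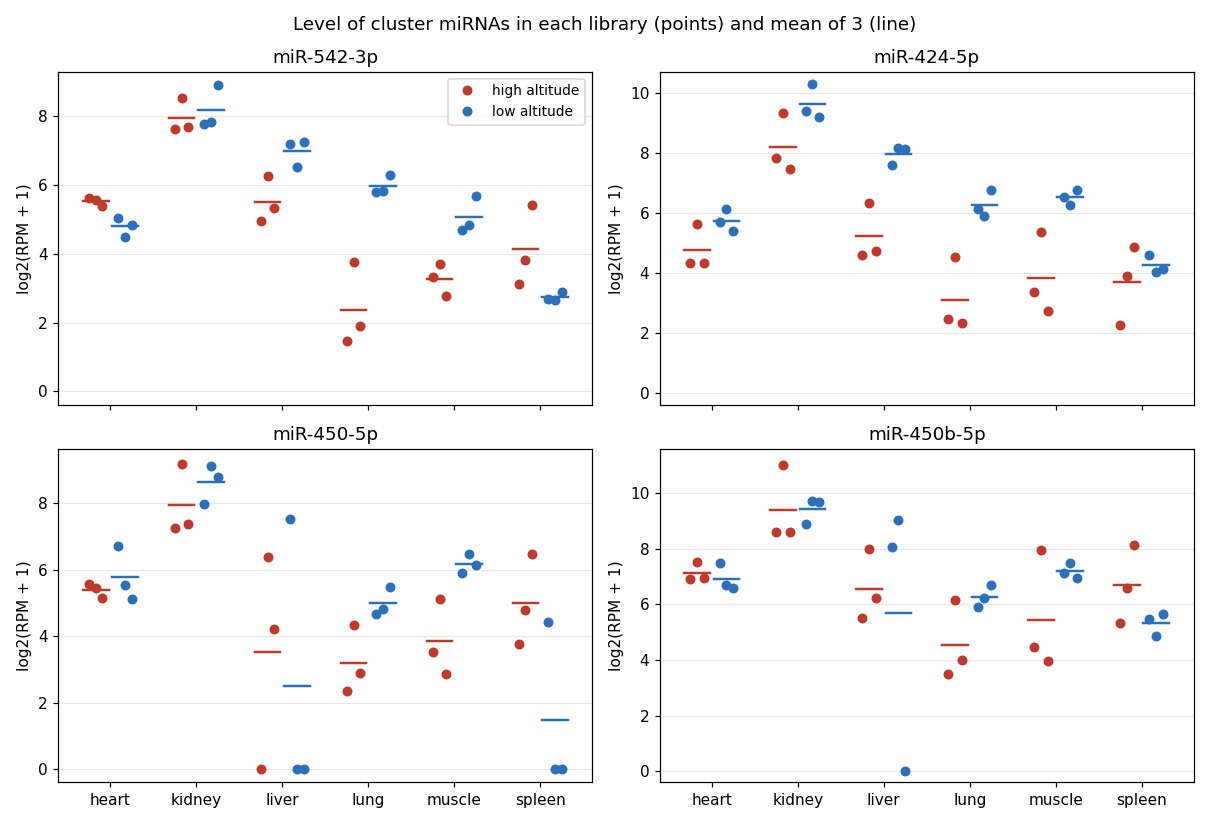
Levels of chi-miR-542-3p, chi-miR-424-5p, chi-miR-450-5p and conserve-chi-miR-450b-5p as log2(RPM + 1) in the 6 tissues, with a point for each high- and low-altitude library and a line for the mean of each group of 3 on that scale. Kidney is the highest tissue for these 4 miRNAs, and in lung the high-altitude points of chi-miR-542-3p (1.76 to 12.6 RPM) lie below the low-altitude points (54.6 to 78.1 RPM).

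The altitude difference of chi-miR-542-3p had opposite directions in different tissues. miR-542-3p is known as a repressor of survivin (BIRC5), an inhibitor of apoptosis. In lung it was at 1.76, 12.6 and 2.74 RPM in high-altitude replicates 1, 2 and 3 and at 54.6, 55.9 and 78.1 RPM in low-altitude replicates 1, 2 and 3. In muscle it was at 9.02, 12.1 and 5.87 RPM at high altitude and at 25.1, 27.9 and 50.9 RPM at low altitude. In liver it was at 29.8, 75.8 and 39.3 RPM at high altitude and at 146, 91.3 and 152 RPM at low altitude. In these 3 tissues all high-altitude values were under all low-altitude values. In spleen the values were 7.79, 13.2 and 41.9 RPM at high altitude and 5.43, 5.29 and 6.45 RPM at low altitude. In heart they were 48.3, 46.4 and 41.1 RPM at high altitude and 32.3, 21.6 and 27.8 RPM at low altitude. High-altitude libraries lay above low-altitude libraries in spleen, and in heart by RPM, whereas in heart the groups overlapped on the TMM scale. In kidney the values were 197, 369.9 and 206 RPM at high altitude and 220.3, 230.2 and 485 RPM at low altitude, and the groups overlapped. The fitted log2 fold changes, high over low, were −3.51 ± 0.68 (SE) in lung, −1.82 ± 0.47 in muscle, −1.43 ± 0.49 in liver, −0.23 ± 0.37 in kidney, 0.56 ± 0.32 in heart and 1.75 ± 0.71 in spleen. The lung value ran from −4.26 without high-altitude replicate 2 to −3.07 without high-altitude replicate 1. The spleen value was 0.83 without high-altitude replicate 3.

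Levels of the neighbouring miRNAs were compared in the same tissues. For chi-miR-424-5p, lung values were 4.56, 22.5 and 4.02 RPM at high altitude and 69.4, 59.4 and 109 RPM at low altitude. For chi-miR-450-5p they were 4.14, 19.1 and 6.47 RPM against 24.3, 27.4 and 43.8 RPM, and for conserve-chi-miR-450b-3p 0.829, 2.32 and 2.55 RPM against 8.78, 13.9 and 13.0 RPM. For chi-miR-542-5p, with 5, 14 and 9 counts against 41, 47 and 67, they were 0.518, 1.35 and 0.882 RPM against 4.23, 4.33 and 6.58 RPM. Thus in lung all 4 members above 10 RPM that were not used for the choice were lower at high altitude without overlap. Of these, chi-miR-542-5p and conserve-chi-miR-450b-3p passed 10 RPM only through kidney. Here and below, nothing is therefore read from setting them against shares of the 308 miRNAs above 10 RPM. chi-miR-424-5p and chi-miR-450-5p, which stayed above 10 RPM without kidney, were lower without overlap in lung, as were 14.3% of the 308. The opposite order held for 6.49% of the 308. Among the chosen miRNAs, conserve-chi-miR-450b-5p had 10.3, 69.7 and 14.9 RPM at high altitude and 58.9, 74.0 and 102 RPM at low altitude in lung, which overlapped by RPM through high-altitude replicate 2 but not on the TMM scale. Its log2 fold change there was −1.36 ± 0.62, or −2.10 without that replicate.

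In muscle, chi-miR-424-5p was at 9.44, 40.3 and 5.63 RPM at high altitude and at 91.4, 76.7 and 109.6 RPM at low altitude. chi-miR-450-5p was at 10.5, 34.1 and 6.34 RPM against 58.4, 87.2 and 69.3 RPM, and conserve-chi-miR-450b-3p at 1.74, 1.96 and 0.548 RPM against 2.78, 6.35 and 16.3 RPM. These 3 of the 4 members did not overlap between the populations and were lower at high altitude. Only chi-miR-424-5p and chi-miR-450-5p are set against the 308 miRNAs, of which 13.6% had this order. The opposite order held for 10.1% of the 308. The remaining member, chi-miR-542-5p, had 2.01, 11.4 and 1.10 RPM against 8.09, 9.01 and 13.9 RPM and overlapped by RPM, while on the TMM scale it too was lower in every high-altitude library. conserve-chi-miR-450b-5p had 21, 245 and 14.5 RPM at high altitude and 138, 178 and 123 RPM at low altitude, so that high-altitude replicate 2 exceeded all low-altitude libraries, and the log2 fold change was −0.89 ± 0.94 with it and −2.74 without it, against −0.48 and −0.42 without high-altitude replicates 1 and 3. chi-miR-424-3p likewise overlapped in muscle, at 1.94, 14 and 0.861 RPM at high altitude and 5.39, 5.91 and 11.2 RPM at low altitude.

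In liver, chi-miR-424-5p was at 23.6, 79.6 and 25.7 RPM at high altitude and at 194, 286 and 283 RPM at low altitude. It was the only 1 of the 4 members lower at high altitude without overlap (13.0% of the 308 miRNAs), and 0 of the 4 were higher (6.49%), but this count holds listed zeros. conserve-chi-miR-450b-3p was at 3.31, 7.17 and 4.04 RPM against 25.2, 35.0 and 0.0 RPM, and overlapped only through the 0 of low-altitude replicate 3. chi-miR-450-5p was listed at 0 in 1 high-altitude and 2 low-altitude livers, and with both arms summed miR-450 did not overlap. In heart, chi-miR-424-5p was at 19.2, 48.7 and 19.2 RPM against 50.9, 69.7 and 41.5 RPM, which overlapped by RPM, while on the TMM scale each high-altitude library was lower. chi-miR-542-5p was at 5.42, 5.41 and 5.27 RPM against 4.26, 3.25 and 5.02 RPM in heart. By RPM it was the only 1 of the 4 higher at high altitude there (22.7% of the 308), and it overlapped on the TMM scale. As it passed 10 RPM only through kidney, nothing is read from that share. Its fitted log2 fold change in heart, 0.2, was −0.05 in a single fit over the 36 libraries. In heart 0 of the 4 were lower without overlap by RPM (9.74%). In kidney all 4 overlapped, with 0 lower (7.79%) and 0 higher (5.19%). There chi-miR-424-5p was at 229, 643 and 175 RPM at high altitude and at 676, 1271 and 591 RPM at low altitude.

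In spleen, where chi-miR-542-3p was higher at high altitude, all 4 members not used for the choice overlapped, with 0 lower (13.6% of the 308) and 0 higher (10.1%). chi-miR-424-5p was at 3.83, 14 and 28.6 RPM at high altitude and at 23.1, 15.4 and 16.7 RPM at low altitude. chi-miR-542-5p was at 0.547, 2.22 and 9.09 RPM against 1.52, 1.04 and 1.11 RPM, and conserve-chi-miR-450b-3p at 0.273, 1.91 and 6.91 RPM against 1.33, 2.30 and 2.67 RPM. In each of these miRNAs high-altitude replicate 3 was the highest spleen library and high-altitude replicate 1 the lowest. conserve-chi-miR-450b-5p had 39.0, 96.3 and 283 RPM at high altitude and 43.0, 27.8 and 49.6 RPM at low altitude, with replicate 3 again the highest and a log2 fold change of 1.69 ± 0.70, or 0.70 without that replicate. For conserve-chi-miR-450b-3p it was 0.36 ± 1.12 and turned to −1.07 without the same replicate. chi-miR-424-3p, the member below 10 RPM, was at 0.820, 1.59 and 1.09 RPM (6, 15 and 12 counts) against 0.667, 0.575 and 0.556 RPM (7, 5 and 5 counts), and these did not overlap.

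Tested within tissues, none of the 5 members not used for the choice was a DE miRNA at high altitude. By edgeR, 0 of their 30 member and tissue pairs reached an adjusted p under 0.05 over the 1391 miRNAs together with a log2 difference of 1.5 or more in either direction, while 9 of 30 had an unadjusted p under 0.05. These 9 were 4 of 5 members in lung (4.74% of the 1391 miRNAs), 3 of 5 in muscle (6.18%), 1 of 5 each in liver (4.24%) and kidney (4.6%) and 0 of 5 in heart (6.4%) and spleen (5.75%). Among the 398 to 468 miRNAs that filterByExpr left per tissue the shares were higher, with 12.9% in lung, 18.6% in muscle, 11.4% in liver, 13.2% in kidney, 21.4% in heart and 13.9% in spleen. Of the 5 members, chi-miR-542-5p, chi-miR-450-5p and conserve-chi-miR-450b-3p come from the precursors of the chosen miRNAs. Their counts are not independent of the choice, so no excess over these shares is read. The share of DE miRNAs among all 1391 was 0.144% in spleen, 0.0719% in muscle and 0.0% in each of lung, heart, liver and kidney, so the count of 0 is at the background. The edgeR log2 fold change of chi-miR-424-5p was −2.60 ± 0.50 in liver (adjusted p = 0.201), −3.0 ± 0.62 in lung (adjusted p = 0.757) and −2.41 ± 0.66 in muscle (adjusted p = 0.675), and in each of these tissues all 3 high-altitude libraries were lower than all 3 low-altitude libraries. It was −1.05 ± 0.52 in heart (−1.78 without high-altitude replicate 2), −1.49 ± 0.51 in kidney and −0.37 ± 0.71 in spleen, and the spleen value turned to 0.05 without high-altitude replicate 1. In lung, conserve-chi-miR-450b-3p had −2.34 ± 0.74, chi-miR-542-5p −2.27 ± 0.72, chi-miR-424-3p −1.83 ± 0.97 and chi-miR-450-5p −1.64 ± 0.58 (adjusted p = 0.832 for each). In muscle, conserve-chi-miR-450b-3p had −2.40 ± 0.86 (adjusted p = 0.693), chi-miR-450-5p −2.16 ± 0.61 (adjusted p = 0.675) and chi-miR-542-5p −1.20 ± 0.81 (adjusted p = 0.799). This last value was −2.35 without high-altitude replicate 2 and −0.77 without high-altitude replicate 3. The muscle value of chi-miR-424-3p was −0.55 ± 0.92 (adjusted p = 1.0), ranging from −2.02 without high-altitude replicate 2 to −0.08 without high-altitude replicate 3.

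Other tools gave different counts for the same 30 pairs. DESeq2 passed 5. For chi-miR-424-5p the adjusted p was 1.39e-05 in liver, 0.000698 in lung and, rounded, 0.05 in muscle, right at the threshold. In lung it was 0.00351 for chi-miR-542-5p and 0.0192 for conserve-chi-miR-450b-3p, which both come from precursors of chosen miRNAs. Among all 1391 miRNAs, many of them at low counts, DESeq2 passed 1.58% in lung, 2.23% in liver and 2.16% in muscle. It passed 1.73% in kidney and 2.59% each in heart and spleen. The edgeR exact test passed 0 of the 30, against 0.144% of the 1391 in lung, 0.575% in liver, 0.216% each in muscle and spleen, 0.0719% in kidney and 0.791% in heart. A single edgeR fit over the 36 libraries passed 2, chi-miR-424-5p in lung (adjusted p = 0.0329) and in muscle (adjusted p = 0.0335). The same fit passed 0.288% of the 1391 in lung, 2.44% in muscle, 0.503% in liver, 0.359% in spleen and 0.144% each in heart and kidney. Over the alternatives tried with the arms kept apart, the adjusted p of chi-miR-424-5p ran from 1.39e-05 to 1.0 in liver, from 0.000698 to 1.0 in lung and from 0.0335 to 1.0 in muscle, with log2 fold changes from −2.95 to −2.11, from −3.74 to −2.65 and from −3.25 to −2.03. The arms of miR-424 summed gave −2.51 ± 0.50 in liver (adjusted p = 0.15), −2.93 ± 0.62 in lung (adjusted p = 0.352), and −1.99 ± 0.79 in muscle (adjusted p = 0.633).

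Whether the altitude difference depended on tissue was tested for the same 5 members. The interaction of tissue and altitude passed for 0 of 5 by edgeR, against 0.216% of the 1391 miRNAs, and for 0 of 5 by DESeq2, against 3.31%. At an unadjusted p under 0.05 it was 0 of 5 by edgeR (6.69%). With population and replicate number as a replicate block it was 2 of 5 (6.61%), chi-miR-424-5p (adjusted p = 0.389) and chi-miR-424-3p (adjusted p = 0.435). After adjustment it was 0 of 5, against 2 of the 1391. Without the block the smallest adjusted p was 0.802, of chi-miR-424-5p, whose fitted differences were negative in all 6 tissues, though in spleen near 0. For chi-miR-542-5p, with −2.27 in lung and 1.55 ± 1.07 in spleen, it was 0.944, and the spleen value was 0.09 without high-altitude replicate 3. Without low-altitude replicate 1 in all tissues, 1 of 5 passed, against 5 of the 1391 miRNAs. This was chi-miR-450-5p, which was then listed at 0 in all remaining low-altitude livers and spleens.

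**Figure D2:**
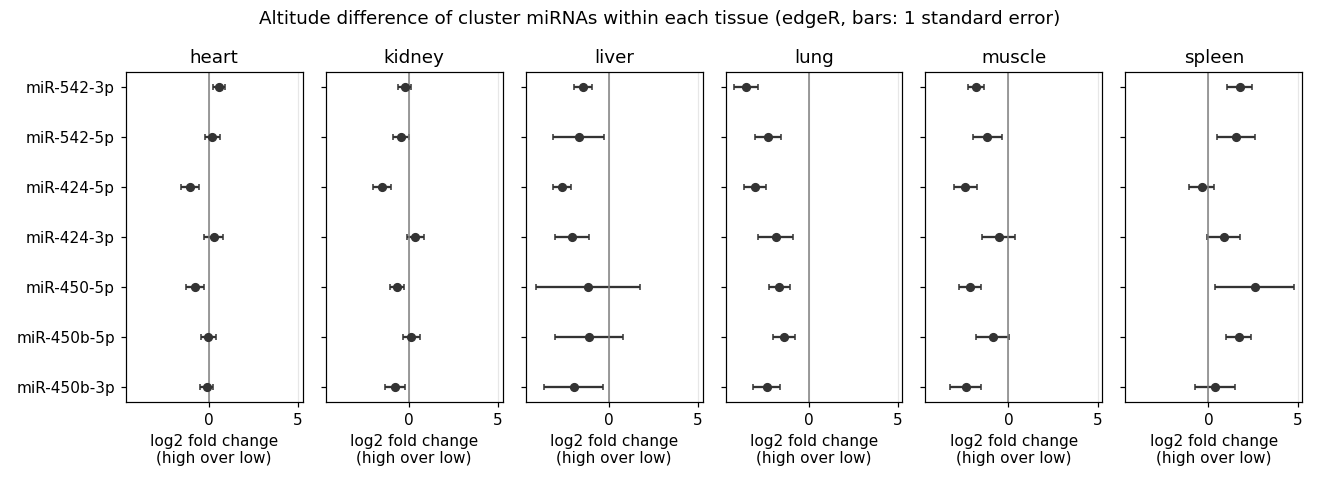
Fitted log2 fold change, high over low altitude, of the members in each tissue (edgeR with TMM scaling, 3 against 3 libraries), with error bars of 1 SE and a line at 0. chi-miR-450-3p is left out because its levels were at a few counts in most libraries. Values are negative in lung and muscle for all members drawn, and in spleen they run from −0.37 for chi-miR-424-5p to 2.59 for chi-miR-450-5p, which rests on low-altitude replicate 1 because the arm was listed at 0 in the other 2 low-altitude spleens, and the values of chi-miR-424-5p and conserve-chi-miR-450b-3p changed sign when 1 high-altitude replicate was left out.

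The miR-450 precursor was listed under different arms in different libraries. In most libraries chi-miR-450-5p carried nearly all counts, with a median share of 99.6% over the 36 libraries. In liver, chi-miR-450-5p was listed at 0, 756 and 159 counts in high-altitude replicates 1, 2 and 3, while chi-miR-450-3p had 190, 1 and 1. In the low-altitude livers chi-miR-450-5p was listed at 1585, 0 and 0 counts and chi-miR-450-3p at 2, 2351 and 3658. In the low-altitude spleens the 5p arm had 217, 0 and 0 counts and the 3p arm 0, 94 and 155. Each of these 5 libraries therefore had the 5p arm at 0 and all counts on the 3p arm, where the other libraries had at most 25 counts of chi-miR-450-3p. The sequence of chi-miR-450-3p is shown because its counts in liver and spleen rest on these 5 libraries, with the seed, bases 2 to 8, in capitals, as given for the study's assay.
chi-miR-450-3p: aTTGGGAGcattttgcatgcat

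All counts of chi-miR-450-3p above 25 were in these 5 libraries, and the cause of the listed zeros was not tested. The liver mean of chi-miR-450-3p, 132 ± 198 RPM (n = 6), had a median of 12.2 RPM. The log2 fold change of chi-miR-450-3p, −4.68 ± 2.74 in liver, rests on these libraries. Without the 5, the liver counts were 1 and 1 at high altitude against 2 in the remaining low-altitude library, and the spleen counts 0, 1 and 1 against 0, so these counts allow no fold. The same holds for all 6 spleens, where the high-altitude group held 2 counts in all. For chi-miR-450-5p the log2 fold change was −1.16 ± 2.90 in liver (adjusted p = 1.0) and 2.59 ± 2.21 in spleen (adjusted p = 0.826). Both rest on low-altitude replicate 1, since the other low-altitude libraries of these tissues were listed at 0 and allow no fold without it. The spleen value was 0.98 without the 5 libraries, with 1 low-altitude library left. When both arms were summed, miR-450 in liver was at 24.2, 82.2 and 17.5 RPM at high altitude and at 183, 331 and 435 RPM at low altitude, with no overlap. In spleen the sum was 12.6, 26.6 and 87.2 RPM against 20.7, 10.8 and 17.2 RPM, with overlap. The summed log2 fold changes were 1.26 ± 0.72 in spleen, −2.95 ± 0.60 in liver, −2.01 ± 0.69 in muscle and −1.65 ± 0.60 in lung, given without a test because the sum holds a chosen miRNA.

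**Figure D3:**
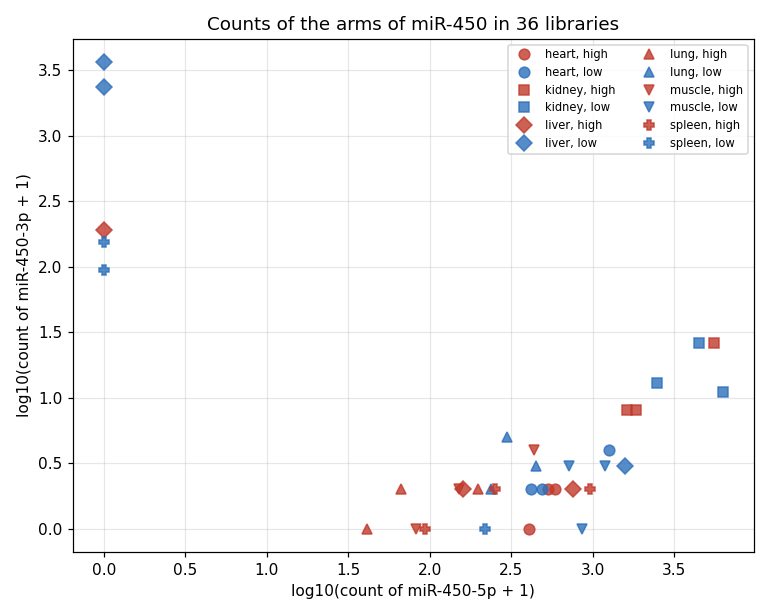
Count of chi-miR-450-3p (vertical axis) against that of chi-miR-450-5p (horizontal axis), both as log10(count + 1), with a point for each of the 36 libraries, its shape giving the tissue and its colour the population. In 3 liver and 2 spleen libraries the 5p arm is at 0 and the 3p arm holds 94 to 3658 counts, and in the other libraries the 3p arm has at most 25.

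Listed zeros of this kind were not particular to miR-450. Of 208 precursors with both arms listed and a mean of at least 10 RPM, 8 had the leading arm at 0 beside at least 50 counts of the other arm in 1 or more libraries, a minimum chosen after seeing the data, among them let-7a in 16 libraries. A further 24 had both arms at 0 in 1 or more libraries with a median of at least 100 counts. In this cluster conserve-chi-miR-450b-5p and conserve-chi-miR-450b-3p were both listed at 0 in low-altitude liver replicate 3, beside 2302 and 3685 counts of the 5p arm in low-altitude replicates 1 and 2, and chi-miR-542-5p was listed at 0 in high-altitude liver replicate 1, beside 234 counts of chi-miR-542-3p. The cause was not tested. The liver differences of conserve-chi-miR-450b-5p (−1.10 ± 1.92) and conserve-chi-miR-450b-3p (−1.96 ± 1.65) hold these values. Without low-altitude replicate 3 they were −1.69 and −2.54, and the former was −0.30 without low-altitude replicate 2.

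The other precursors kept a leading arm. The 5p arm held a median of 94.2% of miR-424 counts (74.3% to 98.6%) and 94.5% of miR-450b counts (84.2% to 99.3% in 35 libraries). miR-542 was the reverse, with a median of 12.8% on the 5p arm (0.0% to 48.7%). The highest share of miR-542-5p, 48.7%, was in high-altitude muscle replicate 2, with 146 counts of the 5p and 154 of the 3p arm, against 15.7% to 24.4% in the other muscle libraries.

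The members differed in which high-altitude replicate was the highest of its group, though less by RPM than on the TMM scale. With no difference among the 3, a replicate is expected to be the highest in 2 of 6 tissues. On the TMM scale, high-altitude replicate 2 was the highest of the 3 in 5 of 6 tissues for chi-miR-424-5p, for conserve-chi-miR-450b-5p and for the sum of the 8 members, and in 6 of 6 for chi-miR-424-3p. It was the highest in 4 of 6 for chi-miR-450-5p, in 3 of 6 for chi-miR-542-5p, in 2 of 6 for chi-miR-542-3p and in 1 of 6 for conserve-chi-miR-450b-3p. By RPM it was the highest in kidney, liver, lung and muscle for chi-miR-542-3p and chi-miR-542-5p, and in kidney, liver and muscle for conserve-chi-miR-450b-3p. chi-miR-450-3p is left out because most of its libraries held a few counts. In kidney, high-altitude replicate 2 held 2079 RPM of conserve-chi-miR-450b-5p, against 383 and 383 RPM in replicates 1 and 3.

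Some sums of marker miRNAs of other cell types did not overlap between the populations in the tissues concerned. In lung, the 8 smooth muscle miRNAs (miR-143 and miR-145, most abundant chi-miR-143-3p, 2 of 8 at 0 in all 6 libraries) summed to 150251, 154842 and 253929 RPM at high altitude and 291233, 302558 and 265108 RPM at low altitude. All 3 high-altitude values were under the low-altitude values. They were likewise lower in spleen, at 357292, 402152 and 369333 RPM against 415577, 568728 and 454538 RPM. In muscle they were higher, at 55425, 23134 and 51272 RPM against 17681, 21418 and 22452 RPM, and in heart also (3 of 8 at 0), at 181237, 116128 and 189879 RPM against 69412, 76287 and 59273 RPM. The 5 striated muscle miRNAs (most abundant chi-miR-133b-5p, 0 of 5 at 0) were lower in muscle at high altitude, at 475045, 492069.8 and 360759.8 RPM against 515249, 553699.8 and 503527 RPM. In liver, the 4 erythroid miRNAs (miR-144 and miR-486, most abundant conserve-chi-miR-486-5p, 0 of 4 at 0) summed to 343, 6388 and 4285 RPM at high altitude and 9104, 9959 and 8658 RPM at low altitude. Of the 308 single miRNAs above 10 RPM, 14.3% in lung, 13.6% each in spleen and muscle and 13.0% in liver were lower without overlap. Higher without overlap were 10.1% in muscle and 22.7% in heart, so nothing is read from the order of these lists. Their part in the cluster's differences was not tested.

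Traces of other tissues' miRNAs were higher in several high-altitude groups without overlap. In lung, miR-122 (2 miRNAs, most abundant chi-miR-122-5p) summed to 72.7, 19.7 and 130.0 RPM at high altitude and 13.0, 10 and 5.69 RPM at low altitude. The 6 heart miRNAs (most abundant chi-miR-208b-3p, 2 of 6 at 0 in all lung and in all kidney libraries and 3 of 6 in all liver libraries) were at 38.1, 20.3 and 105 RPM against 5.37, 18.4 and 10.5 RPM in lung. In liver they were at 288, 228 and 188 RPM against 18.5, 146 and 19.9 RPM, and in kidney at 72.6, 62.8 and 170.3 RPM against 4.05, 32.0 and 10.6 RPM. The striated muscle miRNAs (1 of 5 at 0 in all kidney libraries) were at 1506, 1323 and 2080.4 RPM against 180.2, 571 and 545 RPM in kidney. These traces were far below the levels of the source tissues. In muscle and heart the 9 epithelial miRNAs (miR-141, miR-200 and miR-429, most abundant chi-miR-141-3p, 1 of 9 at 0 in all muscle and 2 of 9 in all heart libraries) were higher, with 21, 76.6 and 29.0 RPM against 14.1, 5.32 and 15.6 RPM in muscle and 50.9, 13.0 and 49.5 RPM against 11.4, 12.5 and 7.69 RPM in heart. In spleen the 5 ciliated epithelium miRNAs (most abundant chi-miR-34c-5p) were at 38.0, 47.0 and 41.2 RPM against 16.1, 14.8 and 18.2 RPM (in heart 7.19, 17.5 and 6.88 RPM against 3.44, 1.58 and 5.1 RPM), and chi-miR-206-3p at 2.05, 3.28 and 1.18 RPM against 0.571, 0.460 and 0.890 RPM. The kidney list was higher in heart, at 34.7, 31.2 and 64.5 RPM against 13.2, 15.5 and 20.4 RPM. The endothelial (miR-126), mesenchymal (miR-199a and miR-214) and leukocyte miRNAs overlapped between the populations in all 6 tissues. Of the 308 single miRNAs above 10 RPM, 6.49% each in lung and liver and 5.19% in kidney were higher without overlap. This share was 10.1% each in muscle and spleen and 22.7% in heart, so nothing is read from the order of the lists. The part of these traces in the cluster's differences was not tested.

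The miR-15/16 relatives, whose 5p strands share the seed of miR-424-5p, were compared in the same libraries. Their 12 listed miRNAs (most abundant chi-miR-16a-5p) summed in muscle to 4239, 5661 and 5626 RPM at high altitude and 5903, 6923 and 10296 RPM at low altitude, with no overlap. In lung they were at 9753, 23047 and 4783 RPM against 12433, 11215 and 15959 RPM, and in liver at 7148, 15697 and 6448 RPM against 9915, 22751 and 19212 RPM. These overlapped, as did heart, kidney and spleen. By RPM, high-altitude replicate 2 was the highest of its group in all tissues but spleen, though only narrowly in muscle. For chi-miR-424-5p it was likewise the highest in all tissues but spleen.

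With TMM and with library size alone, the median miRNA had a log2 fold change of at most 0.16 in size. Single libraries of a group could be scaled differently. In the fit over 36 libraries, the TMM factors of high-altitude lung replicates 1, 2 and 3 were 1.21, 2.03 and 0.746. Over the 308 miRNAs above 10 RPM, the median log2 fold change, high over low, with TMM was 0 in lung, 0.16 in muscle, −0.06 in liver, 0.03 in spleen, 0.01 in heart and −0.05 in kidney. With library size alone it was −0.08, 0.05, −0.15, 0.11, 0.16 and −0.12 in the same tissues. With TMM, the 5 members not used for the choice ranged in lung from −1.64 ± 0.58 (chi-miR-450-5p) to −3.0 ± 0.62 (chi-miR-424-5p).

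Likeness to chi-miR-542-3p was taken over the 36 libraries. The Pearson correlation of log2(RPM + 1) with chi-miR-542-3p was 0.904 for chi-miR-424-5p, 0.866 for chi-miR-542-5p and 0.819 for conserve-chi-miR-450b-3p, the first 3 of 307 miRNAs above 10 RPM. chi-miR-542-5p is the other arm of the same precursor, and it and conserve-chi-miR-450b-3p passed 10 RPM only through kidney, where chi-miR-542-3p was also highest, so no rank is read for them. It was 0.618 for conserve-chi-miR-450b-5p, 0.595 for chi-miR-450-5p and 0.208 for chi-miR-450-3p, values that hold the listed zeros of conserve-chi-miR-450b-5p in 1 liver and the 5 libraries of exchanged arms. Their ranks of 15, 17 and 101 depended on the measure, being 4, 11 and 33 by Spearman correlation and 34, 36 and 59 with log2(RPM + 0.1). Outside the cluster, the highest were chi-miR-204-5p (0.677), chi-miR-127-3p (0.671), chi-miR-30b-5p (0.663), chi-miR-409-3p (0.656) and chi-miR-136-5p (0.64). These values are a description over libraries that share tissue and population. After the tissue means were removed, chi-miR-542-3p had 0.765 with chi-miR-424-5p, 0.783 with chi-miR-542-5p and 0.613 with conserve-chi-miR-450b-3p, and the 2 arms of miR-450 had −0.757, with the 5 libraries of exchanged arms included.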

How the data were processed

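Small RNA libraries of 36 goat tissue samples were base-called with CASAVA 1.8 and mapped by the authors with Bowtie to the goat genome with no mismatches, and miRNAs were identified with miRDeep2 against miRBase. The deposited counts per mature miRNA were used as given. RPM was computed from each library's total. Within each tissue, 3 against 3 libraries were compared with edgeR 4.0.16 (quasi-likelihood test, TMM, R 4.3.3) over 1391 miRNAs with Benjamini-Hochberg adjustment, and DE miRNAs had an adjusted p under 0.05 with a log2 difference of 1.5 or more in either direction. Tissue and interaction effects came from a fit over 36 libraries in 12 groups. The code was tested on simulated data. All cluster members were named, those above a mean of 10 RPM with their values, with the 5 outside miRNAs most correlated with chi-miR-542-3p. Members and marker lists were chosen with earlier results of these data known. Alternatives were DESeq2 1.42.0, the edgeR exact test, a single fit, RLE or library size scaling, filterByExpr, a replicate block, summed arms, leaving out replicates, other pseudocounts and correlations, and, chosen after seeing the data, leaving out the 5 libraries with miR-450-5p at 0. The study's methods take 6 tissues from each goat, but the labels do not say that a replicate number marks the same goat across tissues, so pairing by replicate number is an assumption. Deviations of same-numbered libraries in 2 tissues of a population had a mean correlation of 0.181 over 233 miRNAs (all over 0.1 in 8 of 30 tissue pairs).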

Additional observations from a re-analysis of the deposited data

Results flagged for a closer look

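In 3 miRNAs every high-altitude library lay above every low-altitude library in some tissues and below in others by RPM. Among the 308 miRNAs above 10 RPM this held for 24 (7.79%), of which chi-miR-542-3p and chi-miR-542-5p were 2, while chi-miR-424-3p lay below 10 RPM. chi-miR-542-5p passed 10 RPM only through kidney, so nothing is read from its place among the 24. For chi-miR-542-3p the log2 fold change, high over low, was 0.56 in heart and 1.75 in spleen, against −1.43 in liver, −3.51 in lung and −1.82 in muscle, and in heart the groups overlapped on the TMM scale. This miRNA was among those chosen on these values, and the difference was not tested. For chi-miR-542-5p it was 0.2 in heart, where the groups overlapped on the TMM scale, and −2.27 in lung, the heart value ran from −0.05 to 0.36 over the alternatives with the arms kept apart, and the difference between these 2 tissues was not tested. For chi-miR-424-3p, at 2 to 59 counts in these libraries, it was 0.86 in spleen and −1.83 in lung, and the difference between these 2 tissues was not tested. Groups of 3 were not tested for single libraries that stand apart.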

How the results depend on the processing

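Of 489 comparisons of 34 log2 fold changes with an alternative, 480 kept the sign and 9 changed it, in 6 values. chi-miR-450-5p in liver turned to 7.46 with the replicate block and 10.99 without low-altitude replicate 1 (−2.42 to 10.99 over replicates left out), chi-miR-450-3p in spleen from a fitted −6.96 to 2.60 without the 5 libraries and 1.26 with arms summed, chi-miR-424-5p in spleen to 0.05 without high-altitude replicate 1 (−1.13 to 0.05), chi-miR-424-3p in spleen to −0.32 with arms summed, chi-miR-542-5p in heart to −0.05 with a single fit (0.05 to 0.25 over replicates left out; chosen for these values after seeing the data), and conserve-chi-miR-450b-3p in spleen to −0.38 with the replicate block and −1.07 without high-altitude replicate 3 (−1.07 to 0.88). Fitted values of miR-450 arms rest in part on zeros and are no measured folds. Without low-altitude replicate 1, the low-altitude livers left had 0 counts of chi-miR-450-5p. The −6.96 and 2.60 stand on 0, 1 and 1 high-altitude counts, the latter against 0 in the 1 low-altitude library left. Within a tissue the block pairs goats of the 2 populations that share only a number (mean correlation of deviations 0.0486, all over 0.1 in 1 of 6 tissues), so nothing is read from 7.46 and −0.38. Outside the 34 values followed, chi-miR-424-3p changed sign in heart (0.28, down to −0.16) and in kidney (0.38, down to −0.17). So did conserve-chi-miR-450b-3p in heart (−0.12, up to 0.05). Otherwise the cause was not tested.

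The tissue effect was called for 4 of 4 precursors with arms summed, which are fewer features, against 350 of all 821. With population and replicate number as a replicate block it was called for 8 of 8 members, against 434 of the 1391 miRNAs. The altitude effect was called in 5 of 30 pairs by DESeq2, in 2 by a single fit and in 0 with the replicate block. With the block it was called for 0 of the 1391 miRNAs in each tissue. The interaction was called in 0 of 5 with the block, against 2 of the 1391. It was called in 0 to 1 when replicates were left out in turn, against 0 to 10 of the 1391. With no replicate block, 3 tissue steps passed, 1 of them of chi-miR-450-3p, which passed 10 RPM only through liver. Of the 5 miRNAs most like chi-miR-542-3p, 1 was shared under Spearman correlation and 0 with a minimum of 1 RPM. The edgeR block changed no call of the members.

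With 3 libraries per group and totals of 7108635 to 14407748 counts, members listed at a few counts, such as chi-miR-450-3p outside liver, spleen and kidney, allow no statement on altitude, and a p above the threshold does not show that levels were alike.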

Other observations

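Among the miR-15/16 relatives, chi-miR-16b-5p was singled out after its values were seen. By RPM its high-altitude libraries were below the low-altitude libraries without overlap in 5 of 6 tissues, with 310.1 ± 49.0 against 875 ± 193 RPM in heart, 109.5 ± 95.0 against 662 ± 345 in kidney, 324 ± 310.4 against 1583 ± 585 in liver, 204 ± 20.9 against 381 ± 85.0 in muscle and 513 ± 447 against 2412 ± 839 in spleen (mean ± SD, n = 3). Of the 308 miRNAs above 10 RPM, 7 (2.27%) had this order in 5 or more tissues and 4 (1.3%) the opposite order. In lung the groups overlapped, at 1028 ± 665 and 1239 ± 332 RPM. Both arms of miR-16b were listed at 0 in 3 high-altitude libraries (kidney replicate 2, liver replicate 1 and spleen replicate 3), and the share of miRNAs without overlap in these tissues is given with the cluster's counts. No test is given for it.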
